A study of Mus musculus with 12 samples.

Results

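Gata3, the transcription factor that directs CD4+ T cells to the Th2 lineage, and the type 2 cytokine genes Il4, Il5, Il13 and Il10 were followed in OTII cells primed with or without IL-6 in the recipient. These 5 genes were taken by symbol from the 40840 genes of the count tables. OTII cells are CD4+ T cells whose transgenic T-cell receptor recognizes a peptide of ovalbumin (OVA). Naive OTII cells of the same kind were given to WT recipients or to recipients with a germline deletion of Il6 (Il6-/-), which were sensitized intranasally with a house dust mite extract to which endotoxin was added (HDM-LPS) and with OVA. The donor cells were sorted from the lung-draining mediastinal lymph nodes (mLN) with antibodies to B220, CD4, CD44 and CD45.1 on Day 3 or Day 5, which gave 4 groups of 3 libraries: WT Day 3, Il6-/- Day 3, WT Day 5 and Il6-/- Day 5. The deletion was in the recipients and in all their cells, and no donor cell carried it. The donor cells had 0 to 5 reads on Il6, which does not check the labels. The sample labels call the tissue blood, leave out the endotoxin, and count days by a convention that differs from the manuscript's by its starting day; the labelled days are used here. The age of the mice, and whether a replicate was 1 mouse or a pool, are not given in the sources used here, so p-values measure the spread between these samples, which may be technical.

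In Th2 differentiation, IL-4 binds a receptor that contains IL-4Rα and activates STAT6, which induces Gata3. GATA3 then opens the locus that holds Il4, Il13 and Il5, and T-bet, the product of Tbx21, opposes it in cells that turn to the Th1 lineage. In a draining lymph node, Il4 is also made by follicular helper T (Tfh) cells. IL-5 and IL-13 are products of Th2 cells that mostly appear in the tissue, where they act on eosinophils and on the epithelium. IL-10 was first described as a product of Th2 clones and is made by several kinds of activated and regulatory T cells.

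Il4, Il13 and Il5 lie close together on chromosome 11, whereas Gata3 and Il10 lie on other chromosomes. On GRCm39, Il4 spans chr11:53493809-53509496 on the minus strand, Il13 chr11:53522151-53525529 on the minus strand and Il5 chr11:53611621-53615933 on the plus strand. Il5 ends 106.4 kb from the start of Il4. Rad50, a DNA repair gene that holds a control region of the locus in its introns, lies between Il13 and Il5. Gata3 spans chr2:9861889-9894845 on the minus strand and Il10 chr1:130947581-130952711 on the plus strand. All 5 genes are protein-coding, and the reads counted are those on their exons. The 250 bases directly upstream of the start of the canonical transcript are shown for the 3 cytokine genes of the locus, since Il4 was read out and Il13 and Il5 were not. They run 5′ to 3′ on the strand of the gene, are taken from the GRCm39 genome, and are in lower case with the GATA motif in capitals.

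Il4, chr11:53509497-53509746, minus strand: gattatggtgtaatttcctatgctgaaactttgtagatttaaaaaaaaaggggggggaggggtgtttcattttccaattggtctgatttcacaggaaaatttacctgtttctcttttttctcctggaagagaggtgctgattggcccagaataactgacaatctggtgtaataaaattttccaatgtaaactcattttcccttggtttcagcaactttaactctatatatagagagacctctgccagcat
Il13, chr11:53525530-53525779, minus strand: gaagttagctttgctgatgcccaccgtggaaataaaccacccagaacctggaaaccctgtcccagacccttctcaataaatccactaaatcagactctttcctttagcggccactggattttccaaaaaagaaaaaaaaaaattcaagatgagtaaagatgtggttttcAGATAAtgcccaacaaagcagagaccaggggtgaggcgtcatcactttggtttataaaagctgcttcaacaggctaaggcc
Il5, chr11:53611371-53611620, plus strand: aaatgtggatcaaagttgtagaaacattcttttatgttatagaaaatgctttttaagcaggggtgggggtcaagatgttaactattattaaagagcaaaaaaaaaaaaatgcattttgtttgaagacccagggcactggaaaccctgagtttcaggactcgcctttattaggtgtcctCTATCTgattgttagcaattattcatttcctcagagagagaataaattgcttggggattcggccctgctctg

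The motif searched, on both strands, was AGATAA or a variant of it that begins with T (TGATAA), ends with G (AGATAG) or does both (TGATAG), which are letters that GATA factors are known to bind. It occurred 1 time upstream of Il13, as AGATAA from 81 to 76 bases before the start, and 1 time upstream of Il5, as AGATAG on the opposite strand from 72 to 67 bases before the start. No such letters stood in the windows of Il4 or Gata3. Among the 21747 windows of the same length upstream of protein-coding genes, 5698 (26.2%) held the motif. A match of letters is a description of the sequence and was not measured as binding.

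The libraries held 16125947 to 26111657 counted reads (median 19727354), so that 3 counts, taken as the floor, corresponded to 0.117 to 0.176 CPM, counts scaled to a common library size. For CPM, library sizes were scaled by TMM, which corrects for differences in composition. Within a group, libraries correlated with r between 0.977 and 0.986 across genes, which are not independent replicates. All 7 T cell markers, Cd4 and Cd3e among them, were well counted, with sums of 5080 to 8960 CPM. The 6 B cell markers summed to 5.19 to 10.7 CPM. The 6 CD8 and NK cell markers summed to 56.8 to 86.5 CPM, with Klra4 at 0, and the 8 myeloid and dendritic cell markers to 102 to 163 CPM. Most of each sum came from 1 gene. Cd8b1 had group means of 62.7 to 74.7 CPM, whereas Cd8a had 0.0653 to 1.04. Cst3 had group means of 84.6 to 104 CPM, whereas Lyz2 had 9.45 to 18.3.

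Transcripts of the 5 genes were present at very different levels, as the plot of values by library shows. Gata3 had 3113 to 5475 reads per library, Il4 had 45 to 452 and Il10 had 1 to 24, whereas Il13 had 2 reads and Il5 had 0 reads in all 12 libraries together. To compare genes, levels were divided by the length of the canonical transcript. Gata3 had a level of 52.0 ± 0.392 CPM per kb (SD, n = 3) in WT Day 3 and of 83.2 ± 7.34 in Il6-/- Day 5. Il4 had a level of 11.7 ± 0.946 CPM per kb in WT Day 3 and of 23.8 ± 14.8 in Il6-/- Day 5. Il10 was lower, with levels of 0.0885 ± 0.0549 and 0.821 ± 0.21 CPM per kb in the same groups. The lowest library of Gata3 (51.7 CPM per kb) lay above the highest of Il4 (39.9), and the lowest of Il4 (4.03) above the highest of Il10 (0.969). Il10 and Il13 were not separated in WT Day 3, where the lowest library of Il10 had 0.0414 CPM per kb and the highest of Il13 0.045.

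**Figure D1:**
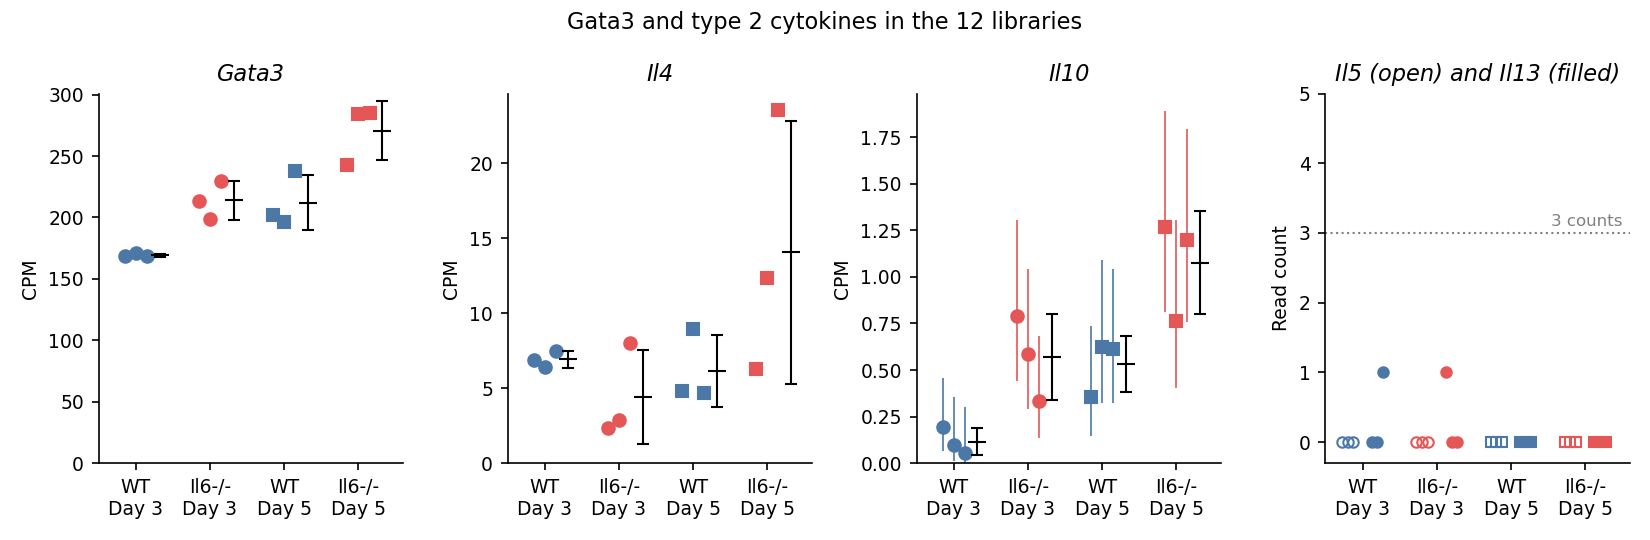
CPM of Gata3, Il4 and Il10 and read counts of Il5 (open) and Il13 (filled) in each of the 12 libraries, for WT (blue) and Il6-/- (red) recipients on Day 3 (circles) and Day 5 (squares). Black bars are the mean ± SD of 3 libraries, and thin lines on Il10 are exact 95% Poisson intervals. The Gata3 libraries of Il6-/- recipients lie above those of WT on both days, Il4 overlaps between the genotypes on both days, and no library exceeds 1 read of Il5 or Il13.

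Gata3 was modestly higher in OTII cells from Il6-/- recipients on both days. On Day 3, the WT libraries had 168, 171 and 169 CPM (4316, 3455 and 3113 reads) and the Il6-/- libraries 214, 198 and 230 CPM (4049, 3740 and 4843 reads). On Day 5, the WT libraries had 202, 196 and 238 CPM (3972, 3775 and 5063 reads) and the Il6-/- libraries 243, 284 and 285 CPM (4593, 4846 and 5475 reads). Every Il6-/- library lay above every WT library of its day, although Il6-/- Day 3 and WT Day 5 overlapped. Fewer cells that make a transcript and less of it per cell cannot be told apart in sorted bulk samples. The WT Day 3 libraries were closer to each other than counting error alone would give (1.66%), with a spread of 0.753% of the mean against 7.29% to 10.7% in the other groups.

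For Gata3, the WT and Il6-/- means were 169 ± 1.28 and 214 ± 15.6 CPM on Day 3 (SD, n = 3), and 212 ± 22.7 and 271 ± 23.9 CPM on Day 5. The log2 fold change (log2FC) between Il6-/- and WT was 0.34 (SE 0.0907) on Day 3 with an FDR of 0.0227, and 0.35 (SE 0.0906) on Day 5 with an FDR of 0.0383, by the quasi-likelihood test of edgeR adjusted over the 13570 genes tested. These correspond to 1.26-fold and 1.28-fold, so Gata3 did not reach 2-fold on either day. Among all genes tested, 7.52% were called higher and 6.19% lower at an FDR under 0.05 on Day 3, and 1.27% higher and 3.35% lower on Day 5. Genes past both that FDR and 2-fold made up 2.74% on Day 3 and 1.14% on Day 5. Genotypes did not overlap in 36.2% of the genes on Day 3 and in 19.6% on Day 5, so separated libraries alone were common. The exact two-sided permutation test over 6 libraries gave p = 0.1 for Gata3 on each day, the smallest that 3 against 3 allows.

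The call of Gata3 was close to the threshold. On Day 3, it was lost without scaling of the libraries (log2FC 0.28, FDR 0.0664) and without WT Day 3 replicate 1 (FDR 0.0588), 2 (FDR 0.0733) or 3 (FDR 0.0705), or without Il6-/- Day 3 replicate 1 (FDR 0.0697) or 3 (FDR 0.092). On Day 5, it was lost with the 6 libraries of that day alone (log2FC 0.34, FDR 0.143), without WT Day 5 replicate 1 (FDR 0.155) or 2 (FDR 0.144), and without Il6-/- Day 5 replicate 2 (FDR 0.125) or 3 (FDR 0.116). It was also lost on Day 5 without WT Day 3 replicate 2 (FDR 0.0565) or 3 (FDR 0.0558), or without Il6-/- Day 3 replicate 1 (FDR 0.0565) or 2 (FDR 0.0502). The log2FC stayed between 0.29 and 0.39 on Day 3 and between 0.30 and 0.44 on Day 5 over the 12 fits that each left out 1 library.

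Gata3 also rose with time in both genotypes, by about as much as between genotypes. From Day 3 to Day 5, its log2FC was 0.32 (SE 0.0907, FDR 0.00672) in WT and 0.34 (SE 0.0906, FDR 0.0045) in Il6-/- recipients. Changes with time were frequent: at an FDR under 0.05, 29.5% of the genes were higher and 27.1% lower in WT, and 30.4% higher and 30.1% lower in Il6-/- recipients. All 7 T cell markers were also called higher on Day 5 in both genotypes, and the share of reads on genes was 60.2% to 62.2% in Day 3 and 52.5% to 56.7% in Day 5 libraries, with 11.7% to 12.9% and 15.2% to 17.3% on no annotated feature. Their part in the changes of Gata3, Il4 and Il10 with time was not tested. Both calls of Gata3 were kept in each of the 12 fits that left out 1 library. The genotype difference on Day 3 minus that on Day 5 was -0.01 (SE 0.128, FDR 0.967), with a 95% interval from -0.29 to 0.26 on the log2 scale. In this test of the interaction, 4.92% of all genes passed an FDR under 0.05. Exons of Gata3 overlap by 303 bases those of Gm13256 on the other strand, a gene that was not in the count tables. The genes closest to Gata3 over the 12 libraries, by the root mean square difference of gene-centred log2 CPM, were Sh3bgrl (0.0956), Tspan31 (0.11), Phykpl (0.11), Gsap (0.116) and Wdr59 (0.12).

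**Figure D2:**
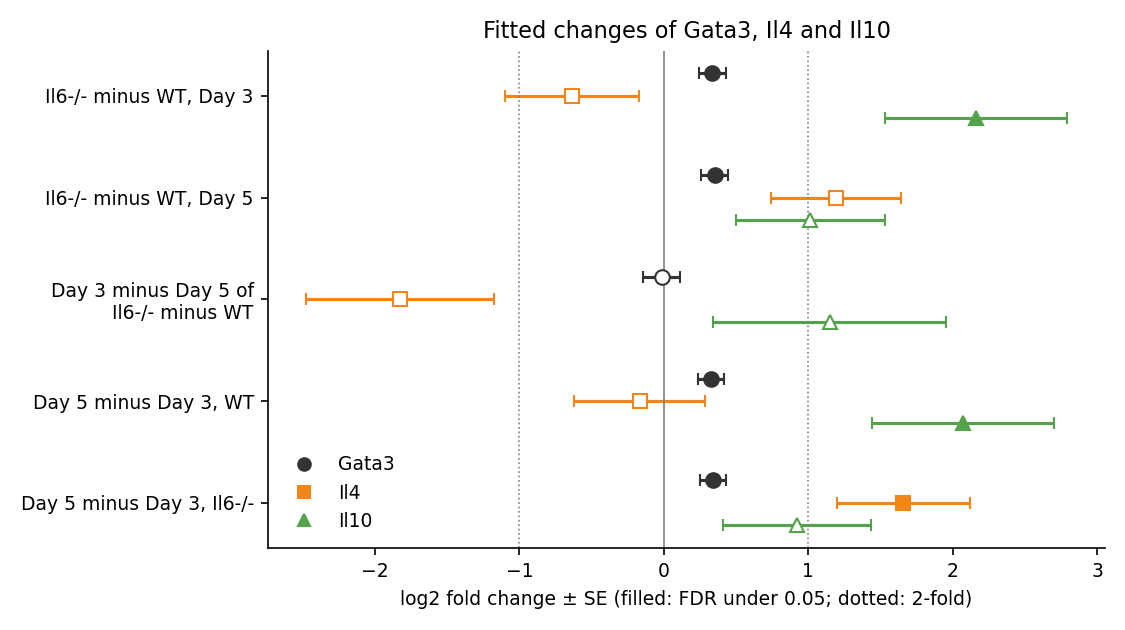
Fitted log2 fold changes of Gata3 (black circles), Il4 (orange squares) and Il10 (green triangles) ± SE in 5 comparisons over the 12 libraries. Filled symbols passed an FDR under 0.05, the solid line marks no change and dotted lines mark 2-fold. The 4 filled Gata3 symbols lie between 0.32 and 0.35, whereas those of Il10 and Il4 that passed lie at 1.66 or above and have wider errors.

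Il4 did not pass an FDR under 0.05 between the recipient genotypes on either day by edgeR over the 13570 genes tested. Its fitted change pointed in opposite directions on the 2 days. On Day 3, the WT libraries had 176, 129 and 138 reads of Il4 and the Il6-/- libraries 45, 54 and 169 reads. Replicates 1 and 2 of Il6-/- lay below all WT libraries, and replicate 3 lay above them in CPM. On Day 5, the WT libraries had 95, 172 and 100 reads and the Il6-/- libraries 119, 210 and 452 reads. Here the Il6-/- libraries reached higher and overlapped with WT in replicate 1.

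In CPM, Il4 had 6.91 ± 0.558 in WT Day 3, 4.42 ± 3.12 in Il6-/- Day 3, 6.16 ± 2.41 in WT Day 5 and 14.0 ± 8.74 in Il6-/- Day 5. The spread between replicates was 8.07% of the mean in WT Day 3 and 39.1% to 70.7% in the other groups. Counting error alone would give 6.20% to 10.6%, so that depth did not limit Il4 outside WT Day 3. The log2FC between Il6-/- and WT was -0.63 (SE 0.465, FDR 0.428) on Day 3, with a 95% interval from -1.62 to 0.36. On Day 5 it was 1.19 (SE 0.452, FDR 0.149), with an interval from 0.23 to 2.16 before adjustment for the number of genes. On Day 5, Il4 passed without Il6-/- Day 5 replicate 1 (log2FC 1.54, FDR 0.0326), and its log2FC fell to 0.60 (FDR 0.523) without replicate 3, the library with the most Il4. With no low-count filter, it also passed on Day 5 (log2FC 1.20, FDR 4.64e-06).

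The genotype difference of Il4 on Day 3 minus that on Day 5 was -1.83 (SE 0.648, FDR 0.123), which did not pass over all genes. Over the 400 labelings that permute the genotypes within each day, the permutation p was 0.04 for Il4, and 0.12 after adjustment over Il4, Gata3 and Il10. This p is exact for no genotype difference on either day. It is not exact for an equal difference on both days, so it does not decide the interaction. The difference passed when the replicate number of each day was a block (log2FC -1.87, FDR 0.0308), with no low-count filter (-1.84, FDR 1.36e-06), without Il6-/- Day 3 replicate 3 (-2.59, FDR 0.0331) and without Il6-/- Day 5 replicate 1 (-2.18, FDR 0.0376). Without Il6-/- Day 5 replicate 3 it was -1.23 (FDR 0.286).

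From Day 3 to Day 5, Il4 rose in Il6-/- recipients by a log2FC of 1.66 (SE 0.462, FDR 0.00601), although replicate 1 of Day 5 (119 reads, 6.30 CPM) lay below replicate 3 of Day 3 (169 reads, 8.01 CPM). Genes past both an FDR under 0.05 and 2-fold in this comparison made up 25.9% of those tested. The call was lost without Il6-/- Day 5 replicate 3 (log2FC 1.06, FDR 0.0597), and the log2FC was 2.41 (FDR 6.26e-04) without Il6-/- Day 3 replicate 3. In WT recipients, the log2FC of Il4 with time was -0.17 (SE 0.456, FDR 0.77), with an interval from -1.14 to 0.80. A direct test of whether the change with time differed between the genotypes is the interaction above, which did not pass.

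Of other cells that make Il4, mast cells, basophils and eosinophils were examined by markers, which had low sums. In Il6-/- Day 3 replicates 1 and 2, these sums were 1.53 and 1.64 CPM, beside 2.38 and 2.86 CPM of Il4. The 10 markers of mast cells, basophils and eosinophils summed to 0.938 to 2.81 CPM, 8 of them were under 1 CPM in every library, and Fcer1a and Gata2 had no read in any library. Hdc, a histamine-forming enzyme that is also found outside these cells, was highest in Il6-/- Day 5 replicate 3 (45 reads against 6 to 27 elsewhere), the library with the most Il4. Summed over 3 libraries, Siglecf had 46 reads in Il6-/- and 2 in WT Day 3, whereas Hdc had 29 and 57. On Day 5, Siglecf had 16 reads in Il6-/- and 5 in WT, and Hdc had 72 and 67. Maf, a transcription factor that activates Il4 in Th2 and Tfh cells, was higher in Il6-/- Day 3 replicate 3 (911 reads) than in replicates 1 and 2 (476 and 483 reads), and in Il6-/- Day 5 replicate 3 (2505 reads) than in replicates 1 and 2 (1604 and 1626 reads). In both groups these were also the libraries with most Il4, whereas in WT Day 5 Il4 was highest in replicate 2 and Maf in replicate 3. The part of these genes in the spread of Il4 was not tested.

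The nearest genes to Il4 by the same measure were Rab26 (0.467), Kcnk7 (0.485), Nipal1 (0.491), Cxcr6 (0.492) and Gm40011 (0.518), so no gene followed it as closely as the nearest ones followed Gata3. The exons of a longer Il4 transcript overlap those of Kif3a on the other strand by 179 bases, none of them in the canonical transcript, and the reads were counted without regard to strand.

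Il5 and Il13, the effector cytokines of Th2 cells, were not detected above the floor in any library. Il5 had 0 reads in each of the 12 libraries. Il13 had 1 read in WT Day 3 replicate 3, 1 read in Il6-/- Day 3 replicate 1 and 0 reads in the other 10 libraries. Summed over the 3 libraries of a group, a count of 0 has an exact 95% Poisson upper limit of 3.69 reads, which corresponds to 0.0574 to 0.0669 CPM for Il5. For Il13, the upper limit was 0.0867 CPM in WT Day 3 and 0.0946 CPM in Il6-/- Day 3. These limits cover counting error only. Exons of Il5 overlap those of Gm12214 on the other strand by 417 bases. Neither gene was tested, and a difference between genotypes was not detectable at this depth.

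The neighbours of Il13 and Il5 were transcribed, as the map of the locus shows. Rad50 had a level of 14.4 ± 1.56 CPM per kb in WT Day 3 and of 10.5 ± 0.297 in Il6-/- Day 5, and Irf1, an interferon-induced transcription factor, of 51.3 ± 2.61 and 109 ± 5.27. Kif3a, a motor protein of cilia, was lower, at 2.10 ± 0.0746 and 1.63 ± 0.408 CPM per kb. Between genotypes, none of the 3 passed on either day. The log2FC of Rad50 was 0.20 (FDR 0.183) on Day 3 and 0.17 (FDR 0.353) on Day 5, that of Irf1 0.15 (FDR 0.23) and 0.17 (FDR 0.22), and that of Kif3a 0.08 (FDR 0.87) and -0.04 (FDR 0.956).

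**Figure D3:**
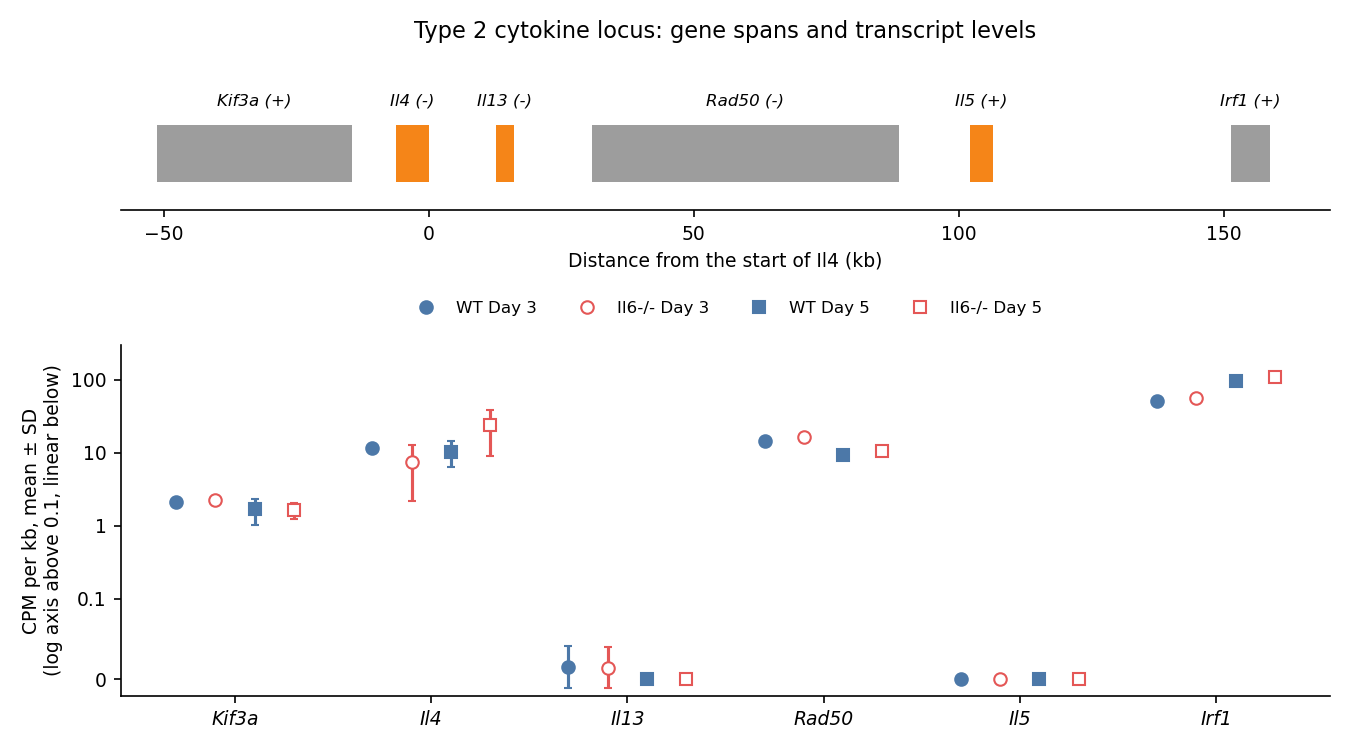
Top, spans of the type 2 cytokine genes (orange) and their neighbours (grey) along the chromosome, in kb from the start of Il4, with the strand in brackets; the span of Il4 is that of its canonical transcript. Bottom, CPM per kb (mean ± SD, n = 3) in the 4 groups on an axis that is logarithmic above 0.1 and linear below. Il4 and the neighbouring genes lie above 1 in every group, whereas Il13 and Il5 lie below 0.1.

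Il10 was scarce, with more reads in OTII cells from Il6-/- recipients on both days and a Day 3 call that depended on the low-count filter. On Day 3, the WT libraries had 5, 2 and 1 reads of Il10 and the Il6-/- libraries 15, 11 and 7 reads. On Day 5, the WT libraries had 7, 12 and 13 reads and the Il6-/- libraries 24, 13 and 23 reads. In CPM, the genotypes did not overlap on either day, with Il6-/- higher and the closest pair on Day 5 at 0.762 and 0.623 CPM. Such separation was found in 36.2% of all genes tested on Day 3 and in 19.6% on Day 5.

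Means of Il10 were 0.116 ± 0.0719 CPM in WT Day 3, 0.569 ± 0.23 in Il6-/- Day 3, 0.530 ± 0.151 in WT Day 5 and 1.08 ± 0.275 in Il6-/- Day 5. The spread between replicates (25.5% to 61.98% of the mean) was close to the 22.4% to 61.2% that counting error alone would give. The log2FC between Il6-/- and WT was 2.16 (SE 0.628) on Day 3 with an FDR of 0.0324 and passed 2-fold, a call that was lost with no low-count filter (FDR 0.0777). The ratio of summed reads per scaled library size, 33 against 8 reads, was 4.50 with an exact conditional 95% interval from 2.04 to 11.3. This interval covers counting error only and not the spread between libraries. On Day 5, the log2FC was 1.01 (SE 0.516, FDR 0.295), with an interval from -0.08 to 2.11, and the ratio of summed reads was 2.04 (1.31 to 3.25, counting error only). The exact two-sided permutation p was 0.1 on both days.

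Il10 passed the low-count filter through 7 libraries at or above 0.507 CPM, none of them WT Day 3, so that its contrast with WT Day 3 was tested only because the other groups were higher. With no filter, the Day 3 log2FC was 2.17. The Day 3 call was also lost without WT Day 3 replicate 2 or 3 (FDR 0.125 in each) and without Il6-/- Day 3 replicate 1 (FDR 0.135) or 2 (FDR 0.0845). Without WT Day 3 replicate 1, the log2FC was 2.77 (FDR 0.0395). With a filter of more than 1 CPM in 3 libraries, Il10 was not tested.

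With time, Il10 rose in WT recipients by a log2FC of 2.07 (SE 0.629, FDR 0.0112), and passed 2-fold along with 22.1% of all genes. This contrast, too, is with WT Day 3, where no library reached the filter. Without WT Day 3 replicate 1 this log2FC was 2.68 (FDR 0.0132). In Il6-/- recipients, the log2FC with time was 0.92 (SE 0.514, FDR 0.133), with an interval from -0.17 to 2.02. The genotype difference on Day 3 minus that on Day 5 was 1.15 (SE 0.805, FDR 0.462), with an interval from -0.57 to 2.86. The nearest genes to Il10 were Sik1 (0.331), Mir155hg (0.391), Snord100 (0.391), Dhrs3 (0.421) and Gbp5 (0.451).

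Lung epithelial markers stood apart in some libraries. The 6 markers summed to 0.475 to 1.56 CPM in 5 of the 6 Day 3 libraries and to 11.6 CPM in Il6-/- Day 3 replicate 2, and to 2.60 to 22.2 CPM on Day 5. Without Il6-/- Day 3 replicate 2, the log2FC on Day 3 was 0.39 for Gata3 (FDR 0.0294) and 2.15 for Il10 (FDR 0.0845). Without WT Day 5 replicate 1, which had the highest sum, the log2FC of Gata3 on Day 5 was 0.32 (FDR 0.155). Their part in these results was not tested.

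Tbx21, which encodes the Th1 regulator T-bet, was also higher in Il6-/- recipients on Day 3, by more than Gata3. On Day 3, the WT libraries had 68, 47 and 50 reads of Tbx21 and the Il6-/- libraries 229, 308 and 311 reads. On Day 5, the WT libraries had 69, 63 and 28 reads and the Il6-/- libraries 86, 111 and 102 reads. Genotypes did not overlap on either day, as in 36.2% of all genes tested on Day 3 and 19.6% on Day 5. The log2FC was 2.49 (SE 0.29, FDR 8.70e-05) on Day 3 and 1.02 (SE 0.292, FDR 0.0615) on Day 5, where it passed with replicate number as a block (FDR 0.0215). The genotype difference on Day 3 minus that on Day 5 was 1.47 (SE 0.407, FDR 0.0514) without and 1.40 (FDR 0.0301) with the block.

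Since Gata3 and Tbx21 are read in the same library, their ratio does not depend on the scaling between libraries. On Day 3, the log2 ratio of Gata3 to Tbx21, each per kb of transcript, was 5.60, 5.81 and 5.57 in the WT libraries and 3.76, 3.22 and 3.57 in the Il6-/- libraries. On Day 5, it was 5.46, 5.52 and 7.11 in WT and 5.35, 5.06 and 5.36 in Il6-/- libraries. Gata3 exceeded Tbx21 in every library, and the excess was smaller in Il6-/- recipients, although Gata3 itself was higher there. The mean difference of Il6-/- minus WT was -2.15 on Day 3 and -0.77 on Day 5, each with an exact two-sided permutation p of 0.1, the smallest possible. On Day 5, it was -0.23 without WT Day 5 replicate 3, the library with 28 reads of Tbx21.

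**Figure D4:**
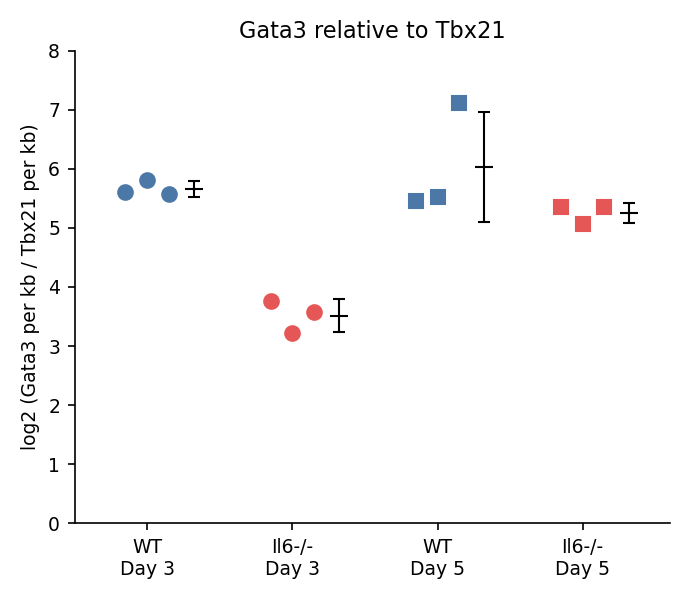
Log2 ratio of Gata3 to Tbx21, each in reads per kb of canonical transcript, in each library of WT (blue) and Il6-/- (red) recipients on Day 3 (circles) and Day 5 (squares), with the mean ± SD of 3 libraries in black. On Day 3 the Il6-/- libraries lie between 3.22 and 3.76 and the WT libraries between 5.57 and 5.81; on Day 5 the genotypes lie close together apart from 1 WT library at 7.11.

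Around these genes, 61 others of the type 2 pathway were examined in 4 lists: receptors of type 2 signals, transcription factors of type 2 programs, opposing lineage regulators, and genes of the locus and other type 2 products. Of them, 47 were tested. The lists were chosen with earlier results of these data known. The shares called in them, here and below, therefore describe the lists and do not test the pathway. On Day 3, 7 were higher, 10 lower and 30 not called at an FDR under 0.05 in Il6-/- recipients, which is 36.2% called against 13.7% of all genes, and the median log2FC was 0.09 against 0.01. On Day 5, 3 were higher, 5 lower and 39 not called, which is 17% called against 4.61% of all genes, and the median was -0.02 against 0.01. With replicate number as a block, the Day 5 counts were 8 higher and 7 lower. Over all 13570 genes, 1592 passed on Day 5 with the block, against 626 without it. Leaving out 1 library gave 3 to 8 higher and 7 to 14 lower on Day 3, and 1 to 5 higher and 3 or 4 lower on Day 5.

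Among receptors of type 2 signals, 8 were tested. On Day 3, 3 were higher, 1 lower and 4 not called (50% called against 13.7% of all genes), and on Day 5, 3 were higher and 5 not called (37.5% against 4.61%). Il10ra, the ligand-binding chain of the IL-10 receptor, had 237, 231 and 211 reads in WT and 257, 302 and 416 reads in Il6-/- Day 3 libraries, and 653, 821 and 811 reads in WT and 1099, 1151 and 1084 reads in Il6-/- Day 5 libraries. Its log2FC was 0.62 (SE 0.15, FDR 0.012) on Day 3 and 0.67 (SE 0.138, FDR 0.0122) on Day 5. The Day 3 call was lost without WT Day 3 replicate 1 (FDR 0.0533) or Il6-/- Day 3 replicate 3 (FDR 0.0643), and the Day 5 call without WT Day 5 replicate 1 (FDR 0.0711) or Il6-/- Day 5 replicate 2 (FDR 0.0503). Il10rb, the other chain, had a log2FC of 0.13 (FDR 0.425) on Day 3 and -0.07 (FDR 0.763) on Day 5.

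Il17rb, a receptor for the epithelial cytokine IL-25, had the smallest p of all genes on Day 5. It had 800, 841 and 1015 reads in WT Day 5 and 1661, 1849 and 2102 reads in Il6-/- Day 5 libraries. The log2FC was 1.21 (SE 0.0969, FDR 3.42e-05) on Day 5 and 0.36 (SE 0.0969, FDR 0.0231) on Day 3. Its exons overlap those of Actr8 by 2472 bases and those of Chdh by 101 bases on the other strand, so that reads in those parts could not be given to 1 gene.

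Il4ra, the receptor chain shared by IL-4 and IL-13, averaged 76.5 ± 6.06 CPM in WT Day 3 and 104 ± 13.9 in Il6-/- Day 3, with a log2FC of 0.44 (SE 0.185, FDR 0.137). On Day 5 its log2FC was 0.23 (FDR 0.537). On Day 3, it passed with the 6 libraries of the day alone (FDR 0.00785), with no filter (FDR 6.48e-04) and without Il6-/- Day 5 replicate 3 (FDR 0.0412). Il13ra1 had 2 to 7 reads and Il5ra 0 to 3 reads per library and were not tested. Crlf2, a chain of the TSLP receptor, was lower on Day 3 (log2FC -0.69, FDR 0.00442). Ccr8, a chemokine receptor of Th2 and regulatory T cells, was higher on Day 3 (0.75, FDR 0.0141), a call that was lost without WT Day 3 replicate 2 (FDR 0.0728) or Il6-/- Day 3 replicate 1 (FDR 0.0845). Ccr4, a chemokine receptor of Th2 cells, was higher on Day 5 (0.64, FDR 0.0427) with overlapping libraries, and its FDR was 0.175 without WT Day 5 replicate 1 and under 0.05 in 3 of the 12 fits that left out 1 library.

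**Figure D5:**
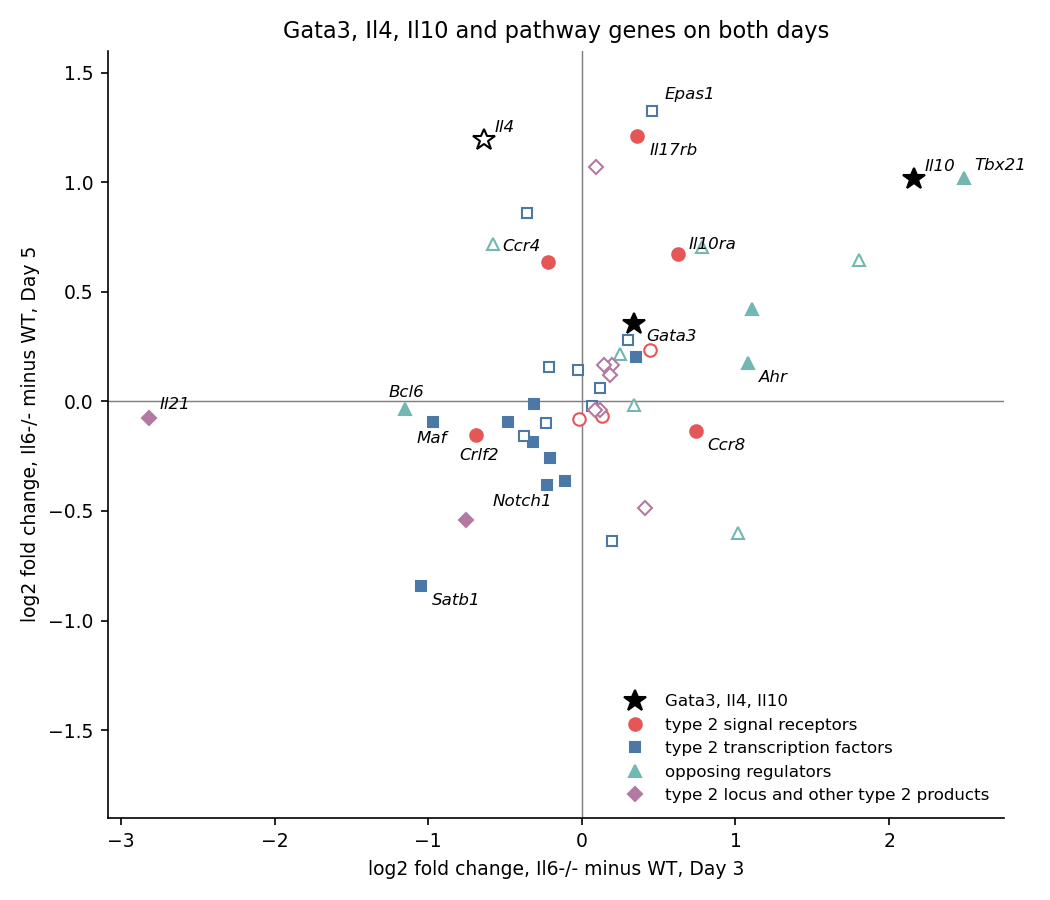
Log2 fold change between Il6-/- and WT recipients on Day 3 (x axis) and Day 5 (y axis). Shown are Gata3, Il4 and Il10 (stars) and 46 of the 47 tested pathway genes. Filled symbols passed an FDR under 0.05 on at least 1 day. Of the genes shown, Satb1 lies lowest on Day 5 (-0.84), Tbx21 and Il10 lie at the right edge, and Gata3 lies near 0.34 on both axes.

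Among transcription factors of type 2 programs, 19 were tested. On Day 3, 1 was higher, 5 lower and 13 not called (31.6% called against 13.7% of all genes), and on Day 5, 4 were lower and 15 not called (21.1% against 4.61%). Stat6, which transmits the IL-4 signal, averaged 273 ± 10.7 CPM in WT Day 3 and 286 ± 13.1 in Il6-/- Day 3, and 259 ± 17.8 and 255 ± 24.6 on Day 5. Its log2FC was 0.07 (FDR 0.66), with an interval from -0.11 to 0.25, and -0.02 (FDR 0.925), with an interval from -0.20 to 0.16. Maf was lower on Day 3 (log2FC -0.97, SE 0.198, FDR 0.00469) and had a log2FC of -0.09 (FDR 0.843) on Day 5. Satb1, a chromatin organizer that acts at the type 2 locus, was lower on both days, with log2FC -1.05 (FDR 3.02e-04) and -0.84 (FDR 0.00435). Ets1 (-0.48, FDR 4.50e-04) and Tcf7 (-0.32, FDR 0.0069), T cell factors that take part in early Gata3 and cytokine expression, were lower on Day 3, with Tcf7 at an FDR of 0.0543 without WT Day 3 replicate 2. On Day 5, Notch1 (-0.38, FDR 0.00931), a receptor that acts as a transcription factor upstream of Gata3, was lower.

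On Day 5, Nfatc1 (-0.36, FDR 0.044) and Batf (-0.26, FDR 0.0478), which act with the T-cell receptor signal at cytokine genes, passed narrowly. The FDR of Nfatc1 was under 0.05 in 3 and that of Batf in 1 of the 12 fits that left out 1 library, and without WT Day 5 replicate 2 they were 0.181 and 0.144. Gfi1, which sustains Th2 cell growth, had a log2FC of -0.64 on Day 5 (FDR 0.0669 without and 0.0414 with the block). Epas1, a hypoxia-induced factor, had 1.32 (FDR 0.0875 without and 0.00445 with the block).

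Opposing lineage regulators changed in both directions on Day 3. Of 11 tested, 3 were higher and 2 lower on Day 3 (45.5% called against 13.7% of all genes). Bcl6, the Tfh regulator, was lower on Day 3 (-1.15, FDR 3.84e-04) and had a log2FC of -0.04 (FDR 0.935) on Day 5. Ahr, a ligand-activated factor that can activate Il10, was higher on Day 3 (1.08, FDR 0.00157).

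Other type 2 products were few. Of 15 genes of the locus or products, 9 were tested. Of these, 2 were lower on Day 3 (22.2% against 13.7% of all genes). On Day 5, 0 passed by edgeR, 3 had an unadjusted p under 0.05 and 1 passed by DESeq2. Of all 13570 genes, 4.61% passed on Day 5 by edgeR and 1127 genes by DESeq2. Il21, a product of Tfh and Th17 cells, was lower on Day 3 (3.80 against 26.8 CPM, log2FC -2.82, FDR 8.80e-04) and was at 34.7 and 36.5 CPM on Day 5. Ecm1, which lets Th2 cells leave lymph nodes, was lower on Day 3 (-0.76, FDR 0.018) and had -0.54 (FDR 0.104) on Day 5. Among the 14 pathway genes under the filter, Il3 and Il31 had 0 reads, Il9 and Il24 had 1 read each, Csf2 had 3 reads and Areg had 17 reads in all 12 libraries together.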

How the data were processed

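RNA-seq read counts of OTII cells were analysed in 12 libraries. The deposited counts were made by the authors from ultra-low-input poly(A) libraries, with single-end reads trimmed with Trim Galore 0.4.4, aligned with STAR 2.5.2a to GRCm39 and counted per gene without regard to strand with HTSeq 0.6.1p1. A deposited table of log2 CPM was not used. Here, genes were filtered with filterByExpr, scaled by TMM and tested in edgeR 4.0.16 (R 4.3.3) by the quasi-likelihood test with 1 coefficient per group and Benjamini-Hochberg adjustment (FDR). The study's threshold was an FDR under 0.05 with at least 2-fold, and calls at that FDR alone are given with the fold beside them. The method was tested on simulated counts. DESeq2 1.42.0 was an alternative. Same-numbered Day 5 libraries deviated together from their group means (r = 0.243, 0.206 and 0.129), so the fit with replicate number as a block is given where it changed a Day 5 call. Intervals are at 95%. Beside the 5 genes, the text names the 12 pathway genes with the smallest p of each day, a set of fixed genes (receptors, Stat6, Maf, neighbours of the locus) and the 5 nearest genes by pattern. Of these, 1 gene is not reported here. Other pathway genes were named after their values were seen. The genes and lists were chosen with earlier results of these data known. Group labels were taken from the sample titles.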

Additional observations from a re-analysis of the deposited data

Results flagged for a closer look

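In 5 of the 47 pathway genes tested, the difference between Il6-/- and WT recipients itself differed between the days. This was by the interaction test of edgeR with adjustment over all genes, at an FDR under 0.05. The share was 10.6% against 4.92% of all genes, in lists that were chosen with earlier results of these data known. The log2FC on Day 3 minus that on Day 5 was -2.74 for Il21 (FDR 0.0182), which was lower in all Il6-/- libraries on Day 3 and overlapped on Day 5. It was -1.12 for Bcl6 (FDR 0.0137), with the same pattern, and -0.39 for Ets1 (FDR 0.0377), likewise. For Il17rb it was -0.85 (FDR 0.00504), with higher levels in Il6-/- libraries on both days and a larger difference on Day 5. For Ccr4 it was -0.86 (FDR 0.0499), with overlapping libraries on both days. Among Gata3, Il4 and Il10, none passed this test by edgeR. At an unadjusted p under 0.05 of the edgeR fit, 1 of them did (Il4), and with DESeq2 none passed, with no adjusted p for Il10.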

How the results depend on the processing

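Without scaling, the Day 3 log2FC of Gata3 was 0.28 (FDR 0.0664), and with the 6 libraries of Day 5 alone its Day 5 log2FC was 0.34 (FDR 0.143). With no low-count filter, the log2FC of Il10 on Day 3 was 2.17 (FDR 0.0777), that of Il4 on Day 5 was 1.20 (FDR 4.64e-06) and the Il4 interaction was -1.84 (FDR 1.36e-06). With replicate number as a block, the Il4 interaction was -1.87 (FDR 0.0308). The cause was not tested.

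Leaving out 1 library gave log2FC of 0.29 to 0.39 (Day 3), 0.30 to 0.44 (Day 5) and -0.11 to 0.04 (interaction) for Gata3. For Il10 on Day 3 it gave 1.86 to 2.77. For Il4 it gave 0.60 to 1.56 on Day 5, -2.59 to -1.23 for the interaction and 1.06 to 2.41 with time in Il6-/- recipients. The Gata3 interaction changed sign without Il6-/- Day 3 replicate 2 (0.038), WT Day 5 replicate 1 (0.018) or 2 (0.038), or Il6-/- Day 5 replicate 3 (0.023).

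Among pathway genes, the count called higher on Day 3 was 11 with the block and 3 to 8 without 1 library, and the count called lower was 16 with the 6 libraries alone and 7 to 14 without 1 library. On Day 5, 8 were higher with no filter, 6 with DESeq2, 8 with the block and 1 to 5 without 1 library, and 3 were lower with RLE scaling, with no scaling and with 6 libraries alone and 3 to 4 without 1 library. In the interaction, 5 were higher with no filter, 1 with a filter of more than 1 CPM, 5 with DESeq2, 4 with the block and 0 to 1 without 1 library, and 8 were lower with no filter, 8 with the block and 2 to 6 without 1 library.

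Signs also turned for small log2FC: Kif3a on Day 3 without Il6-/- Day 3 replicate 2 (-0.017, highest value without 1 library 0.18), Il10rb on Day 5 without WT Day 5 replicate 2 (0.00045, lowest -0.14), and Maf on Day 5 without Il6-/- Day 5 replicate 1 (0.031, lowest -0.29). Stat6 on Day 5 was 0.0031 with RLE scaling, 0.024 with no scaling, 0.00304 with DESeq2, and 0.015 and 0.056 without WT Day 5 replicate 1 and Il6-/- Day 5 replicate 3 (lowest -0.077). Kif3a on Day 5 was 0.0075 with no scaling, and 0.33 and 0.15 without WT Day 5 replicate 2 and Il6-/- Day 5 replicate 1 (lowest -0.24).

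The pathway counts given above are to be read beside those of all genes under the same settings. Of all genes, 1861 passed on Day 3, with 942 to 2738 over the alternatives. The Day 3 count of all genes was 2658 with the block and 2738 with 6 libraries alone. On Day 5, 626 passed, against 1397 with no filter, 1127 with DESeq2, 1592 with the block, 359 with 6 libraries alone and 225 to 1169 without 1 library. In the interaction, 668 passed, against 1300, 1132 and 1564 in the first 3 of these and 235 to 943 without 1 library; the fit of 6 libraries alone holds no interaction. Without scaling, the median log2FC of all genes with time in Il6-/- recipients moved from 0.09 to 0.24, and that of the interaction from -0.0045 to -0.10. Same-numbered libraries of Day 3 (r = 0.033, 0.060 and 0.032) and of the 2 days share only a number. The block changed no Day 5 call of Gata3, Il4 or Il10.

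Counting error was large for Il5, Il13 and Il10, which had few or no reads, and small for Gata3. A count of 0 reads and the spread of 3 libraries do not show that a gene is silent or unchanged. With 3 libraries a group, the exact permutation test cannot go below 0.1.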
